A study of Homo sapiens with 6 samples.

Results

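The genes described here carry secretory proteins through the endoplasmic reticulum (ER): they bring new chains into it, fold them, remove those that fail to fold and load the rest for export. They were taken from a list of 60 gene symbols, with ERN1 and XBP1 left out of it by design. Of the 60, 29 had a probe set with exactly 1 symbol in the platform annotation and form the set described, among 14884 genes tested. Gene expression was measured on 6 one-colour arrays of MM.1S, an established human cell line of multiple myeloma, a cancer of antibody-secreting plasma cells. Every culture had first been pulsed for 1 h with Cfz, by which carfilzomib, a drug that blocks the proteasome, is usually meant. Then 12 h of culture followed, with the solvent DMSO (3 arrays) or with ATRA at 10 µM (3 arrays). ATRA stands for all-trans retinoic acid, which activates the receptors of that name. The groups thus share the Cfz pulse, the series asks what ATRA adds to it, and no Cfz-free cells were analysed here. Whether arrays of a group are separate cultures is not stated in the labels, so p-values speak only for the spread of these arrays, which may be technical, and the number of arrays limits the precision.

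As background, a secreted chain is recognised by the signal recognition particle as it leaves the ribosome and passes through the SEC61 channel, where signal peptidase removes its leader. Lumenal chaperones, lectins and disulfide enzymes fold it, and a chain that stays misfolded is passed back through the membrane, ubiquitinated and degraded by the proteasome, a route called ER-associated degradation (ERAD). Folded cargo leaves in vesicles coated by COPII. Plasma cells are known for the heavy load that antibody secretion puts on this route, and misfolded protein in the ER activates the unfolded protein response, through IRE1, PERK and the membrane-bound factor ATF6.

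Promoters of ER genes are known for sequence elements that the factors of this response bind, so 5 of them are shown, each as the 250 bases before a RefSeq start site (GRCh38.p14), 5′ to 3′ on the strand of the gene. CREB3L2 is the 1 gene of the set that passed the limma test of ATRA against DMSO (adjusted p under 0.05), a call lost in 7 of 12 alternative fits. CALR and CRELD2 carry the ER stress response element ERSE and HYOU1 and SDF2L1 its variant ERSE-II, and these 4 genes did not pass the test. Capitals mark matches to ERSE, ERSE-II, UPRE or the cAMP response element CRE on either strand. The windows are chr7:138002087-138002336 (minus strand) for CREB3L2, chr19:12938359-12938608 (plus strand) for CALR, chr22:49918384-49918633 (plus strand) for CRELD2, chr11:119057206-119057455 (minus strand) for HYOU1 and chr22:21642052-21642301 (plus strand) for SDF2L1.
CREB3L2: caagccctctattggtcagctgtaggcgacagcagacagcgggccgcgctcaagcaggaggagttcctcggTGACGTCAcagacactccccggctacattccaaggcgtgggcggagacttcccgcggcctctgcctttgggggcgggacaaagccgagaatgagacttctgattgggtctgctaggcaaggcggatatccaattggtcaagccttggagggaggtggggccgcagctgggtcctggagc
CALR: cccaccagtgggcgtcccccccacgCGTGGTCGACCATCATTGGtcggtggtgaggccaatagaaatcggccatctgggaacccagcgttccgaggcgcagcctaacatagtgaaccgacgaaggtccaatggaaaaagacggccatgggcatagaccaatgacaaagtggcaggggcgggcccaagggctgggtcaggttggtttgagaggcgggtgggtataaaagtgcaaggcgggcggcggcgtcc
CRELD2: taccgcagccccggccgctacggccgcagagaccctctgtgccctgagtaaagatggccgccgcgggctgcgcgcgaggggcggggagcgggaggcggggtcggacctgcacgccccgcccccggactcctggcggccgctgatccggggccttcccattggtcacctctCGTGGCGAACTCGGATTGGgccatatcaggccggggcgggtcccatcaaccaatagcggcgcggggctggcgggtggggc
HYOU1: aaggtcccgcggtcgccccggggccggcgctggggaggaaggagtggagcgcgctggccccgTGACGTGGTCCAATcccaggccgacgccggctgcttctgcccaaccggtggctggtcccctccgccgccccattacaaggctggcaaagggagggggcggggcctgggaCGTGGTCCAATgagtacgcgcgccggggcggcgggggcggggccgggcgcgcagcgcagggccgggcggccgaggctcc
SDF2L1: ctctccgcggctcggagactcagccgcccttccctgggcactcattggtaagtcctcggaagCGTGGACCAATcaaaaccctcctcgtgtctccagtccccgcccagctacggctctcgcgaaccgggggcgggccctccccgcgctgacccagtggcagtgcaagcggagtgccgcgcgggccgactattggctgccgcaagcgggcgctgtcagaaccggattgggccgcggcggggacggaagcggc
In HYOU1 the UPRE match overlaps the first of the ERSE-II matches.

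The motifs searched were ERSE (CCAAT, any 9 bases, CCACG), ERSE-II (ATTGG, any 1 base, CCACG), UPRE (TGACGTGG), a core bound by ATF6 and XBP1, and CRE (TGACGTCA, a palindrome), on both strands of windows from 250 bases before to 50 after each start. CRE was added with the result for CREB3L2 known. Of the 60 listed genes, 55 had such a window (26 of the 29 measured), with 75 windows in all since 12 genes have several starts. ERSE was held by 7 of the 55 genes, ERSE-II by 3, UPRE by 8 and CRE by 1, against 0.0916%, 0.0696%, 0.927% and 2.25% of the 27305 genes with a window. Since promoters of ER genes are known for such elements, higher shares of ERSE, ERSE-II and UPRE were foreseeable and are no finding about this list. The 3 ERSE matches of CANX are a single site seen from 3 starts, and ERSE-II and ERSE share the letters CCACG but no match. A match is a description of these letters and not evidence that a factor binds there.

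**Figure D1:**
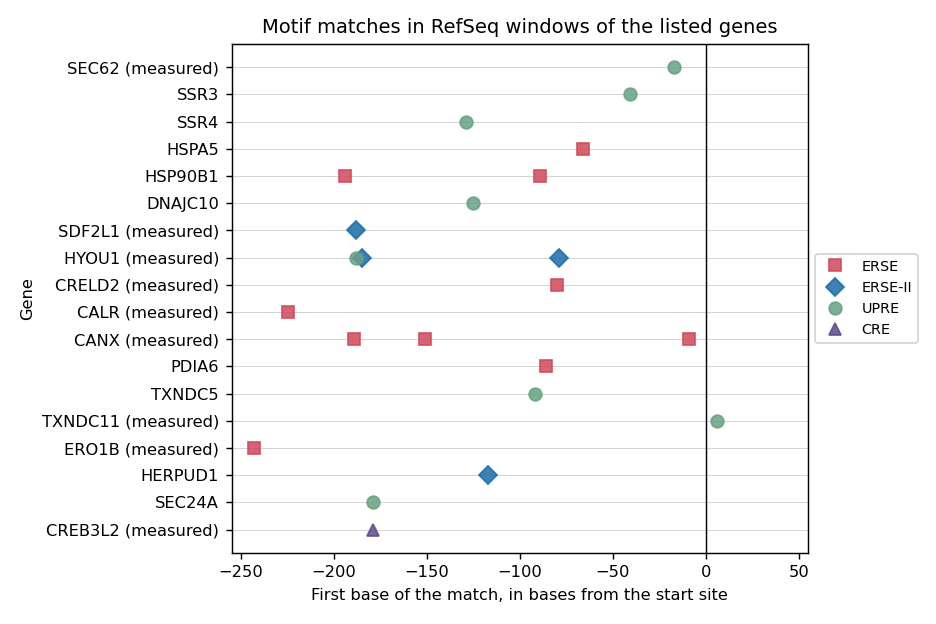
Position of each motif match in the RefSeq windows of the listed genes, with the first base of the match on the horizontal axis in bases from the start site (at 0) and 1 row for each gene with a match. Squares are ERSE, diamonds ERSE-II, circles UPRE and the triangle CRE, and 9 of the 18 genes shown were measured on the arrays.

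With ATRA, 1 of the 29 genes rose, 0 fell and 28 did not pass an adjusted p of 0.05 (limma, Benjamini-Hochberg over all 14884 genes). Of all genes tested, 3.80% passed in either direction, 1.73% higher and 2.07% lower, so 1 of 29 (3.45%) is near that share. Those genes include dim ones, while all 29 lay over the median level of the genes tested. In a fit of the 7442 genes at or over that level 1143 were called, and of the 29 genes 1 rose and 0 fell. These 7442 genes share that lower limit with the 29 but are not matched to them in level. A single call is too few to compare the shares. The gene that rose is CREB3L2, a transcription factor held in the ER membrane, and the steps of translocation, folding, ERAD and export held 0 called genes in 9, 11, 5 and 1 measured. At an unadjusted p under 0.05, 7 of the 29 passed, 4 higher and 3 lower, where 17.9% of all genes did (7.52% higher and 10.4% lower). The median log2 difference, ATRA minus DMSO, was 0.031 over the 29 genes, -0.015 over all genes and -0.051 over genes at or over the median level. The median size of the difference was 0.10 for the 29 genes against 0.14 for all genes, which are not matched for level. With the variance model eBayes with trend and robust, 4 of the 29 rose and 2 fell (3.32% and 5.60% of all genes, 8.92% together): CREB3L2, MZB1, SEC61A1 and TXNDC11 rose, and ERP44 and ATF6 fell. Hence the call of CREB3L2 is the 1 that both variance models give, and the calls of the other 5 depend on that choice.

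The RNA is that of whole cultures, so a change in every cell and a change in a share of the cells cannot be told apart. Standard errors ran from 0.081 to 0.20 on the log2 scale. For 27 of the 29 genes the 95% interval lay within 0.5 of 0 on the log2 scale, the exceptions being CREB3L2 (up to 0.75) and SELENOS (up to 0.61). The 3 ATRA values lay wholly above the 3 DMSO values for 10 genes (34.5%) and wholly below them for 5 (17.2%). Among all genes tested these shares were 9.86% and 14.8%, and among the 7442 genes at or over the median level 13.2% and 24.5% (37.7% together, beside 15 of the 29, 51.7%; 24.7% of all genes). All 29 genes lay over that median, and the main fit applied no filter on dim genes.

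**Figure D2:**
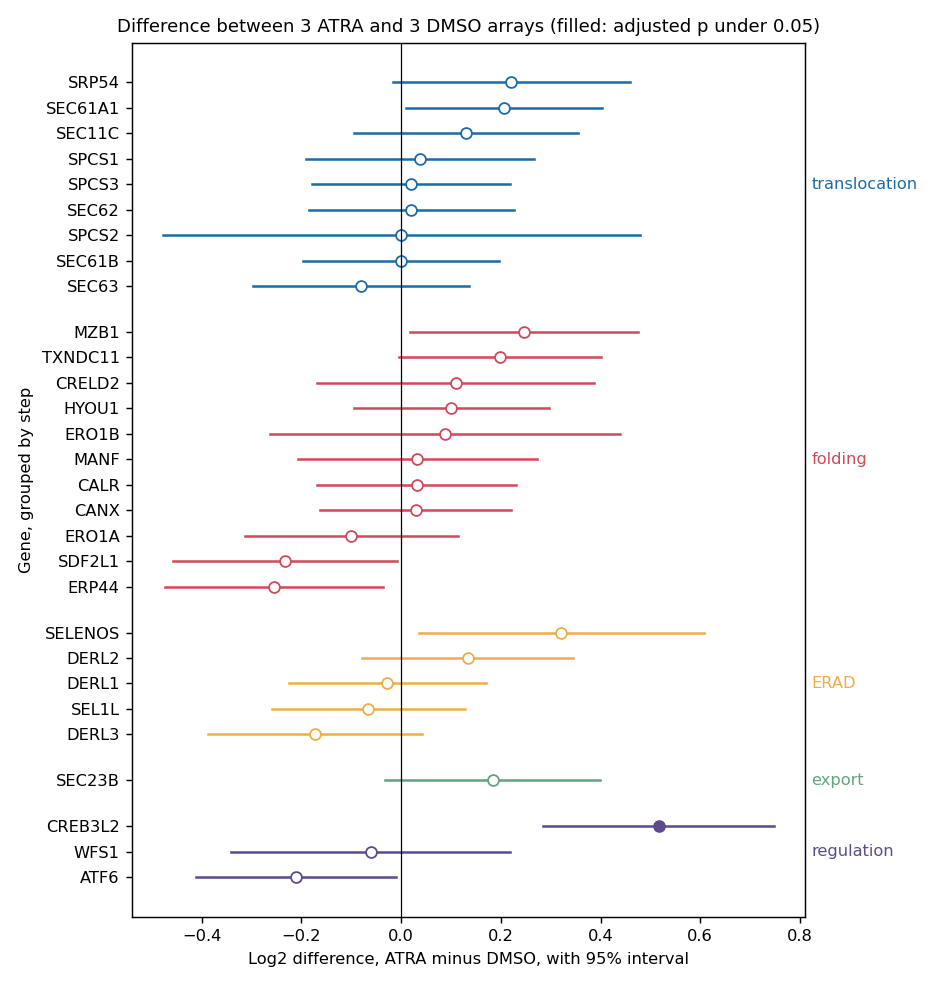
Log2 difference, ATRA minus DMSO, of the 29 genes with its 95% interval (horizontal axis), grouped by step, from 3 arrays a group. The filled point is CREB3L2, the gene with an adjusted p under 0.05, and the 28 open points have intervals that stay within 0.61 of 0.

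Among the factors that regulate the pathway, CREB3L2 encodes an ER membrane-bound transcription factor of the CREB and ATF family, released by cleavage and known for raising COPII genes in cartilage. Its intensities were 204, 235 and 206 on the DMSO arrays and 295, 303 and 324 on the ATRA arrays. All 3 ATRA arrays were above all 3 DMSO arrays, at 307 ± 15.1 against 215 ± 17.0 (SD, n = 3), a rise of 1.43-fold (log2 difference 0.52, SE 0.099, 95% interval 0.29 to 0.75, adjusted p = 0.0358). The call was lost in each fit with 1 array left out, with limma adjusted p of 0.123 without DMSO replicate 1, 0.0584 without DMSO replicate 2, 0.124 without DMSO replicate 3, 0.0900 without ATRA replicate 1, 0.0925 without ATRA replicate 2 and 0.112 without ATRA replicate 3. With the replicate number as a block the adjusted p was 0.108, and over all alternatives it ran from 0.000975 to 0.124. The difference itself stayed between 0.48 and 0.58 in these fits.

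ATF6, the sensor of the unfolded protein response that travels to the Golgi and is cut to release a transcription factor, had intensities of 1414, 1376 and 1461 on the DMSO arrays and 1177, 1249 and 1249 on the ATRA arrays. The groups did not overlap and the ATRA arrays were the low ones, but the difference did not pass (log2 difference -0.21, SE 0.086, 95% interval -0.41 to -0.0092, adjusted p = 0.257). So CREB3L2 and ATF6, related membrane-bound factors, had log2 differences of 0.52 and -0.21. WFS1, an ER membrane protein that is mutated in Wolfram syndrome, was at 280.4, 313 and 314 on the DMSO arrays and 308, 315 and 249.8 on the ATRA arrays. Its groups overlapped, with ATRA replicate 3 the lowest of the 6 arrays (log2 difference -0.061, SE 0.120, 95% interval -0.34 to 0.22, adjusted p = 0.848).

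Of 16 listed translocation genes 9 were measured, and their median log2 difference was 0.021 (0.052 without DMSO replicate 3, 0.046 without ATRA replicate 1 and 0.058 with quantile normalization). SEC61A1, the subunit that forms the SEC61 channel, had intensities of 2630.2, 2638 and 2608 on the DMSO arrays and 3116, 3057 and 2915 on the ATRA arrays. Every ATRA array was above every DMSO array, and the difference did not pass (log2 difference 0.21, SE 0.084, 95% interval 0.0096 to 0.40, adjusted p = 0.255). SEC61B, a small subunit of the same channel, was at 836, 851 and 859 on the DMSO arrays and 834, 878 and 834 on the ATRA arrays, with the ranges interleaved (log2 difference -0.00037, SE 0.084, 95% interval -0.20 to 0.20, adjusted p = 0.999). The channel's subunits thus had log2 differences of 0.21 and -0.00037, a contrast that was not tested. SEC62 and SEC63, partners of the channel for chains that enter after synthesis, had differences of 0.021 and -0.081 with overlapping groups. A second, dimmer probe set of SEC62 gave -0.19 (adjusted p = 0.743, over all probe sets with 1 symbol).

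SRP54, the subunit of the signal recognition particle that binds the signal sequence, was at 78.5, 81.0 and 85.7 on the DMSO arrays and 92.6, 88.7 and 105 on the ATRA arrays. The ATRA values lay above the DMSO values by a narrow margin and the difference did not pass (log2 difference 0.22, SE 0.102, 95% interval -0.017 to 0.46, adjusted p = 0.318). SEC11C, a catalytic subunit of signal peptidase, was at 1232, 1224 and 1368 on the DMSO arrays and 1339, 1360.1 and 1483 on the ATRA arrays with overlapping groups (log2 difference 0.13, adjusted p = 0.548). The other signal peptidase subunits SPCS1, SPCS2 and SPCS3 had differences of 0.038, 0.0006 and 0.021. SPCS2 had the widest interval of the step, -0.48 to 0.48, with intensities of 38.8, 59.9 and 63.2 on the DMSO arrays and 45.6, 52.9 and 60.9 on the ATRA arrays: DMSO replicate 1 was the lowest of the 6 arrays, and without it the difference was -0.22 (adjusted p = 0.536). The listed genes SEC61G, SSR1, SSR2, SSR3, SSR4, SRPRB and STT3A were not analysed here.

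Folding genes were the largest step, with 11 of 25 listed genes measured and a median log2 difference of 0.032 (0.070 without DMSO replicate 3 and 0.071 with quantile normalization). Among the chaperones of glycoproteins, CALR (calreticulin) was at 5031, 4887 and 5263 on the DMSO arrays and 5255, 5183 and 5069 on the ATRA arrays and CANX (calnexin), its membrane-bound relative, at 1868, 1892 and 1849 on the DMSO arrays and 1908, 1902 and 1912 on the ATRA arrays. For CALR the groups overlapped, while for CANX the 3 ATRA arrays lay above the DMSO arrays by a difference of 0.029. Neither passed, with adjusted p of 0.893 and 0.896, and intervals of -0.17 to 0.23 and -0.16 to 0.22. HYOU1, an ER chaperone of the HSP70 family, was at 1241, 1231 and 1202 on the DMSO arrays and 1273, 1332 and 1335 on the ATRA arrays, with groups that did not overlap (log2 difference 0.10, SE 0.083, 95% interval -0.094 to 0.30, adjusted p = 0.598), and its dimmer probe set gave -0.12 (adjusted p = 0.696).

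MZB1, a cochaperone of B cells and plasma cells that takes part in antibody assembly, had intensities of 1741, 1889 and 1824 on the DMSO arrays and 2166, 2322 and 1989.5 on the ATRA arrays. All ATRA values were above the DMSO values, with ATRA replicate 2 the highest, and the difference did not pass (log2 difference 0.25, SE 0.097, 95% interval 0.018 to 0.47, adjusted p = 0.242). Disulfide enzymes lay on both sides. TXNDC11, a thioredoxin-domain protein of the ER, was at 2561, 2489 and 2583 on the DMSO arrays and 2778, 2996 and 2991 on the ATRA arrays, with the ATRA arrays all higher (log2 difference 0.20, SE 0.086, 95% interval -0.0031 to 0.40, adjusted p = 0.285). ERP44, which retains partly oxidised cargo and the ERO1 oxidases in the early secretory route, was at 867, 888 and 799 on the DMSO arrays and 674, 723 and 743 on the ATRA arrays. Here the ATRA arrays were all lower, and the difference did not pass (log2 difference -0.25, SE 0.093, 95% interval -0.47 to -0.036, adjusted p = 0.211). The oxidases ERO1A and ERO1B, which regenerate the disulfide enzymes, had overlapping groups and differences of -0.10 and 0.088.

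SDF2L1, a partner of the chaperone BiP in its cycle with J proteins, was at 173, 164 and 147 on the DMSO arrays and 135, 138 and 139 on the ATRA arrays. The ATRA arrays were the low ones without overlap, and the difference did not pass (log2 difference -0.23, SE 0.096, 95% interval -0.46 to -0.0076, adjusted p = 0.263). MANF, a secreted ER stress-inducible protein, and CRELD2, a further protein known to be induced by ER stress, had overlapping groups, with differences of 0.032 (adjusted p = 0.911) and 0.11 (adjusted p = 0.699). The listed folding genes HSPA5, HSP90B1, DNAJB9, DNAJB11, DNAJC3, DNAJC10, PDIA3, PDIA4, PDIA5, PDIA6, P4HB, TXNDC5, FKBP2 and FKBP11 were not analysed here, so the step is described without BiP, GRP94 and most of the disulfide isomerases.

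**Figure D3:**
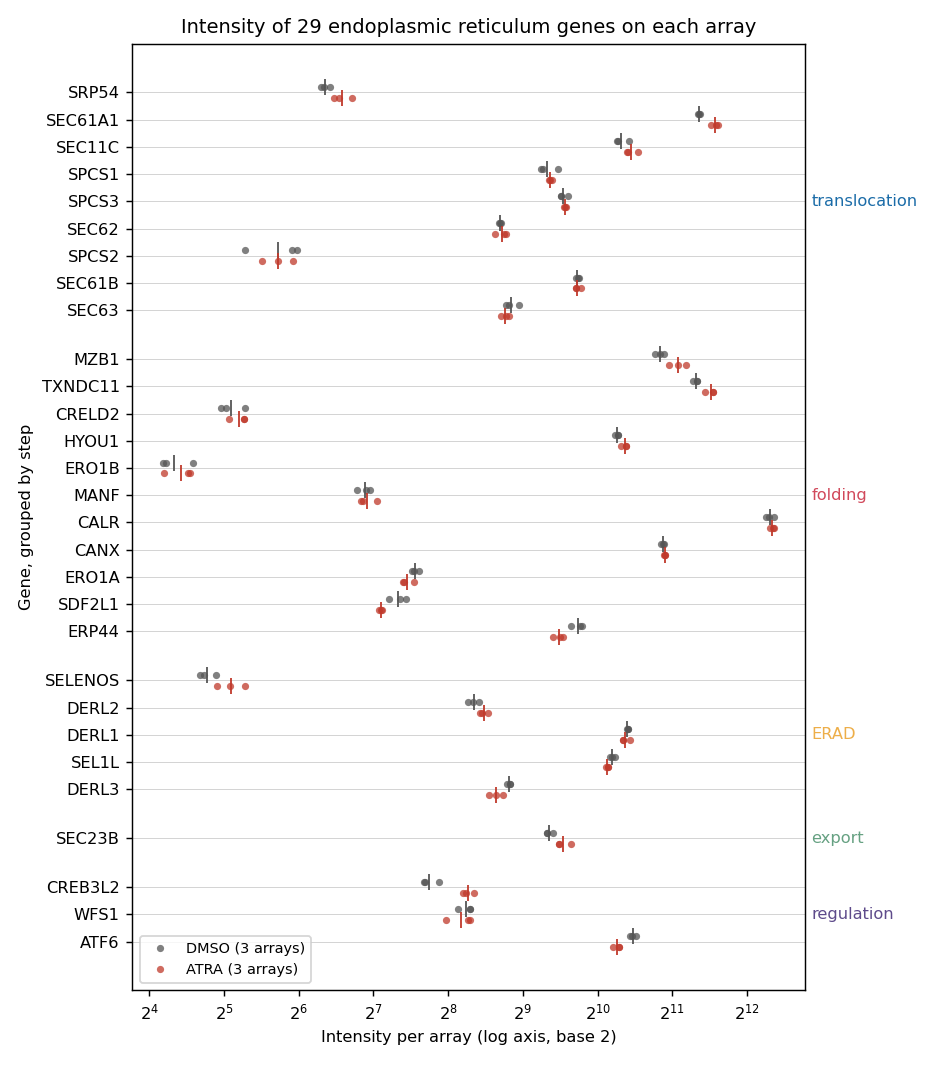
Intensity of each of the 29 genes on each array (horizontal log axis), with DMSO in grey and ATRA in red, 3 points a group and a vertical bar at the group's geometric mean. The groups separate for 15 genes (51.7%, beside 24.7% of all genes and 37.7% of those at or over the median level). Of these 15, CREB3L2 alone had an adjusted p under 0.05 by limma, and SEC61A1, MZB1, TXNDC11, ERP44 and ATF6 are among those that did not pass. Levels of different genes are not comparable with each other.

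In ERAD, 5 of 11 listed genes were measured and their median log2 difference was -0.028. This median turned to 0.039 with quantile normalization and was -0.0099 without ATRA replicate 2, -0.014 without ATRA replicate 1 and -0.059 without ATRA replicate 3, so no direction is read from it. SEL1L, the scaffold of the HRD1 ubiquitin ligase in the ER membrane, was at 1204, 1167 and 1148 on the DMSO arrays and 1126, 1107 and 1131 on the ATRA arrays. Each ATRA value was under each DMSO value, with a difference that did not pass (log2 difference -0.065, SE 0.083, 95% interval -0.26 to 0.13, adjusted p = 0.745). The derlins are membrane proteins that help misfolded chains back to the cytosol, and none of the 3 measured passed. DERL3 was at 453, 441 and 454 on the DMSO arrays and 399, 426 and 373 on the ATRA arrays, with the ATRA arrays all lower (log2 difference -0.17, SE 0.091, 95% interval -0.39 to 0.042, adjusted p = 0.389). DERL2 was at 308, 341 and 323 on the DMSO arrays and 344, 370.1 and 352 on the ATRA arrays, with the ATRA arrays all higher (log2 difference 0.13, SE 0.090, 95% interval -0.078 to 0.34, adjusted p = 0.506). DERL1 had overlapping groups and a difference of -0.028 (adjusted p = 0.908), which was 0.039 with quantile normalization.

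SELENOS, a selenoprotein that links the derlins to the extracting ATPase in the cytosol, was dim for this set. It was at 26.6, 29.6 and 25.7 on the DMSO arrays and 30.1, 33.8 and 38.9 on the ATRA arrays. The ATRA arrays were higher without overlap, and the difference, the largest of the genes that did not pass, had a wide interval (log2 difference 0.32, SE 0.122, 95% interval 0.035 to 0.61, adjusted p = 0.225). HERPUD1, SYVN1, EDEM1, EDEM2, EDEM3 and OS9 were not analysed here. Of the export genes SEC23B, a subunit of the inner COPII coat, was the 1 of 5 measured. It was at 677, 641 and 640.2 on the DMSO arrays and 714, 798 and 715 on the ATRA arrays, with the ATRA arrays all higher (log2 difference 0.18, SE 0.092, 95% interval -0.032 to 0.40, adjusted p = 0.362), and SEC24A, SEC24D, SEC31A and LMAN1 were not analysed here.

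**Figure D4:**
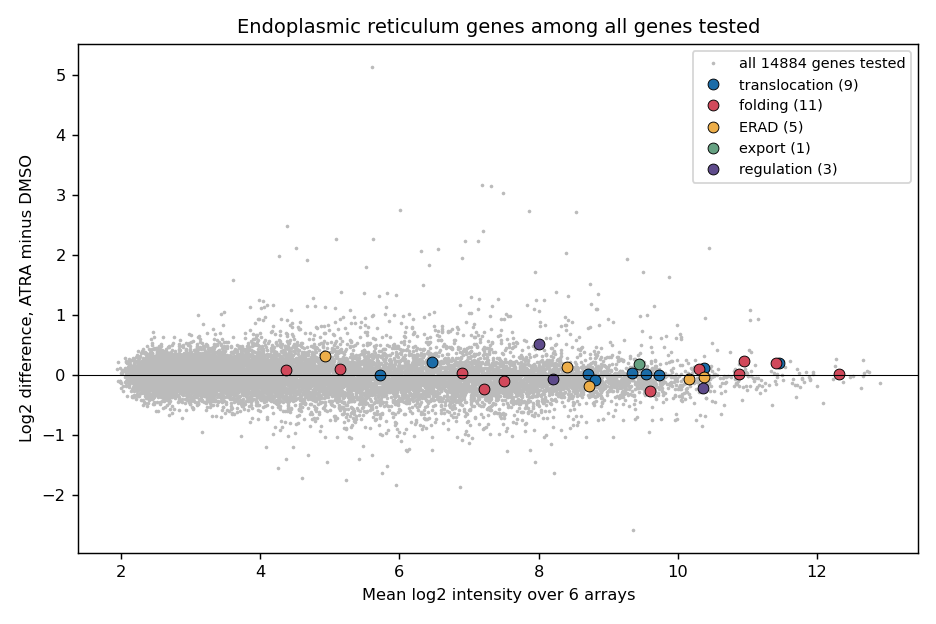
Mean log2 intensity over 6 arrays (horizontal axis) against the log2 difference, ATRA minus DMSO (vertical axis), for all 14884 genes tested in grey and the 29 ER genes coloured by step. The ER genes lie between -0.25 and 0.52, while all genes span -2.57 to 5.13.

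CREB3L2, with its CRE match, had the largest difference of the set (0.52). Of the 323 tested genes with CRE in a window, 4 rose and 16 fell, with a median of -0.029. Of all 10749 tested genes with a window, 206 rose and 241 fell. Genes with CRE were thus called lower more often than higher, and CREB3L2 is 1 of the 4 that rose. Of the 6 measured genes with ERSE or ERSE-II in a window (CALR, CANX, CRELD2, ERO1B, HYOU1 and SDF2L1), 0 rose and 0 fell. Beside the same 10749 genes a count of 0 in 6 is near the background. By limma's test their log2 differences ran from -0.23 for SDF2L1 to 0.11 for CRELD2, with a median of 0.060, and SDF2L1 was the 1 with an unadjusted p under 0.05 (0.0444). With eBayes with trend and robust 0 of these 6 passed as well. The 20 measured genes with a window and neither element had a median of 0.026. Outside the set, 20 tested genes carried ERSE or ERSE-II, with differences from -0.95 to 0.54 and a median of -0.10, of which XBP1 rose and SHCBP1 fell. All tested genes with a window had a median of -0.020. UPRE was found in the windows of SEC62, HYOU1 and TXNDC11 among measured genes, with differences of 0.021, 0.10 and 0.20.

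Other genes of the same 4 steps gave a similar share of calls, 5 of 135 measured (3.70%, beside 3.80% of all genes). Their lists were written from general knowledge, but with earlier results of these data known, so the counts are no independent evidence. Of the 135, 12 lay under the median level, as did 7442 of all 14884 genes, so these shares are not matched for level. UBE2G1, a ubiquitin-conjugating enzyme, rose from 1437 ± 24.0 to 3061 ± 139.7 (SD, n = 3; log2 difference 1.09, limma adjusted p = 0.00124). ERLEC1, a lectin that reads the glycans of misfolded proteins, rose by 0.47 on the log2 scale (limma adjusted p = 0.0424), and these were 2 of 27 measured in the ERAD list, where 0 fell. In the folding list ERP29, a lumenal protein with a thioredoxin fold, rose by 0.72 (limma adjusted p = 0.0165), the 1 of 32 that passed. ARF4, a small GTPase that recruits the COPI coat, rose by 0.66 (limma adjusted p = 0.0109), the 1 of 39 in the list of export and retrieval. TRAM2, of the family of translocating chain-associated membrane proteins, was the 1 of 37 in the list of translocation and glycosylation that passed, and fell by 0.74 (limma adjusted p = 0.00697). The list medians were -0.0055 for translocation and glycosylation, -0.087 for folding, 0.018 for ERAD and 0.035 for export and retrieval. Without DMSO replicate 1 the medians of ERAD and export were -0.021 and -0.0076, so no direction is read from them. With 1 array left out, ERLEC1 lost its call in every fit (limma adjusted p of 0.137 without DMSO replicate 1, 0.0832 without DMSO replicate 2, 0.135 without DMSO replicate 3, 0.0987 without ATRA replicate 1, 0.104 without ATRA replicate 2 and 0.123 without ATRA replicate 3), ERP29 in 4 (0.0636 without DMSO replicate 1, 0.0585 without DMSO replicate 2, 0.0721 without DMSO replicate 3 and 0.0516 without ATRA replicate 3) and ARF4 in 1 (0.0509 without DMSO replicate 1). UBE2G1 and TRAM2 kept theirs in all 6 such fits.

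Among 14 measured sensors and factors of the unfolded protein response, 3 rose and 0 fell, beside 1.73% and 2.07% of all genes. The list median was 0.15, and 0.092 without ATRA replicate 3. They were ERN1 (1.00), which encodes the sensor IRE1, XBP1 (0.54), whose mRNA IRE1 splices, and MAP3K5 (1.14), the kinase ASK1 that signals downstream of IRE1. The limma adjusted p were 0.00159, 0.0175 and 0.00243. XBP1 lost its call in all 6 fits with 1 array left out (0.0702 without DMSO replicate 1, 0.0584 without DMSO replicate 2, 0.0758 without DMSO replicate 3, 0.0589 without ATRA replicate 1, 0.0593 without ATRA replicate 2 and 0.0631 without ATRA replicate 3). ERN1 and XBP1 were set apart from the list of 60 with their rise known. The list of sensors and factors, MAP3K5 included, was also chosen with earlier results known. The count here is thus no independent evidence.

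**Figure D5:**
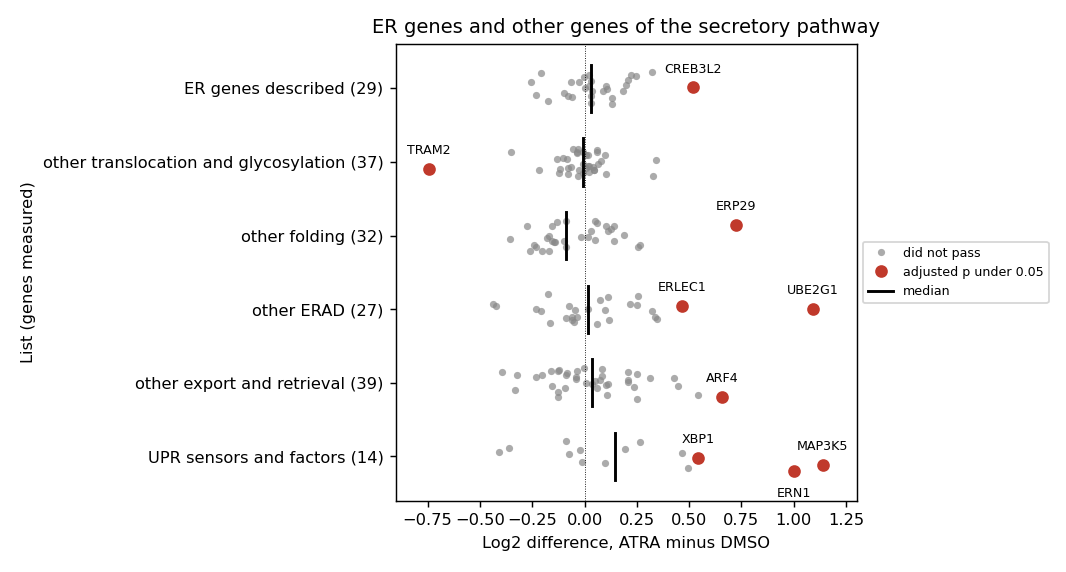
Log2 difference, ATRA minus DMSO (horizontal axis), of the 29 ER genes and of 5 lists of other secretory pathway genes, 1 point a gene, with the list median as a vertical bar and genes with an adjusted p under 0.05 in red. The medians lie between -0.087 and 0.15, and the vertical scatter within a list carries no value.

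Over the whole series, median intensity of all probe sets was 9.40 to 9.76 per array, and log2 values of genes correlated at 0.990 to 0.992 within groups and 0.985 to 0.987 between them (across genes, none of which is a replicate). The labels and the file name no batch. Of 11 plasma cell markers 7 were measured, and 3 of them rose with ATRA by limma's test, as did 1.73% of all genes. They were CD38 by 3.85-fold (adjusted p = 0.000145), SDC1 by 1.79-fold (adjusted p = 0.00274) and XBP1 by 1.46-fold (adjusted p = 0.0175). XBP1 is the gene already counted among the response factors above. The groups did not overlap for 6 of the 7, 3 higher and 3 lower with ATRA. Among all genes they did not overlap for 24.7%, and among genes at or over the median level for 37.7%. The 3 lower markers were SLAMF7 (log2 difference -0.31), POU2AF1 (-0.25) and IRF4 (-0.17). They did not pass (limma adjusted p of 0.112, 0.383 and 0.383). The part of these markers in the results on ER genes was not tested. SDC1, CD38, IRF4, XBP1 and SLAMF7 had mean log2 levels between 8.29 (CD38 with DMSO) and 10.9 (IRF4 with DMSO), while POU2AF1 and CD27 were between 3.76 and 4.25, near the median of all genes (4.19). Of 47 markers of other cell types 24 were measured. By limma 0 of the 24 passed and 3 were at an unadjusted p under 0.05, where 3.80% and 17.9% of all genes did. The summed intensity of the 24 was 1157 to 1259 with DMSO and 991 to 1101 with ATRA. Most of that sum was the myeloid marker CD68, at 710 ± 4.90 with DMSO and 573 ± 35.6 with ATRA (SD, n = 3; limma adjusted p = 0.121), followed by the epithelial marker KRT18 at 154 ± 41.6 and 136 ± 21.1. Of the 24 markers 16 lay under the median level of all genes, with LYZ the lowest myeloid marker (mean log2 level 2.37 with DMSO), and 0 of 6 erythroid markers were measured.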

How the data were processed

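Total RNA of 6 MM.1S samples was biotin-labelled with a whole-transcript kit and hybridised, per the labels. The authors deposited 1 intensity per array, on a linear scale, for each of 53617 probe sets. RMA and limma are named without version or role in the submitters' processing notes, and the genome build is not given in the sources used here. Tests were planned for log2 values, so these linear values were turned to log2 first, with no pseudocount. Of the probe sets 16098 had 1 symbol, 0 several, and 37519 are unnamed here. Each of 14884 symbols was represented by its probe set with the highest mean.

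ATRA was compared with DMSO with limma 3.58.1 in R 4.3.3 (lmFit, eBayes, two-sided, no block, no filter), with Benjamini-Hochberg adjustment over all symbols at 0.05. Standard errors and 95% intervals are the moderated ones, and SDs are over 3 arrays on the linear scale. The limma fit was tried on simulated data with known differences, and no test was run on a pathway step. The ER genes and lists were chosen with earlier results of these data known. Named were called genes, the largest differences and the brightest of each step and a fixed set of genes. Alternatives were a replicate block, each array left out, a filter on dim genes, quantile and median normalization, eBayes with trend and robust, and the mean or each of a gene's probe sets. Promoter windows are those of RefSeq (GRCh38.p14).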

Additional observations from a re-analysis of the deposited data

How the results depend on the processing

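The 3 pairs of arrays with the same replicate number deviated from their group means with correlations of 0.017, 0.0087 and 0.016 across genes. For pairs with different numbers the correlations ran from -0.014 to -0.0027. Whether the numbers pair the arrays is not stated in the labels, and correlations this small do not settle it. With that number as a replicate block, calls over all genes went from 565 to 200, and 0 ER genes rose (0 among the regulators). In the other lists under the block 0 translocation and glycosylation genes fell, 0 folding and 0 export genes rose and 1 ERAD gene rose, and CREB3L2 stood at an adjusted p of 0.108, TRAM2 at 0.0506 and XBP1 at 0.0808. A fit with the block has fewer residual degrees of freedom.

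With eBayes with trend and robust, 1327 genes were called. Among ER genes 4 rose and 2 fell (1 translocation and 2 folding genes rose, and 1 folding gene and 1 regulator fell), and in the other lists 1 folding gene rose and 4 fell, 3 ERAD genes rose and 2 fell, 5 export genes rose and 1 fell, and 4 unfolded protein response factors rose and 1 fell. Without genes under the median level, 1143 of 7442 were called. Then 2 translocation and glycosylation genes, 1 folding, 1 ERAD and 2 export genes of the other lists fell and 1 folding gene, 4 ERAD genes, 4 export genes and 4 response factors rose, with medians of -0.043 (ERAD) and 0.0047 (export). With arrays shifted to a common median, 1 ERAD gene of the other list rose (ERLEC1 lost its call at 0.0562) and the median of translocation and glycosylation was -0.018.

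Quantile normalization moved medians by more than the spread between arrays, to 0.058 for the ER genes, 0.058 for translocation, 0.071 for folding and 0.039 for ERAD, and in the other lists to 0.017, -0.031, 0.072 and 0.059 for translocation, folding, ERAD and export, which turned the sign of the ERAD step and of the other translocation list. It also turned the sign of SEC61B (0.024), CALR (-0.0085) and DERL1 (0.039). A common median turned SPCS2 (-0.012), and the mean of the probe sets turned SEC62 (-0.086) and HYOU1 (-0.0093), whose other probe sets gave -0.19 and -0.12. Their adjusted p ranged from 0.696 to 0.984.

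With 1 array left out, 207 to 317 genes were called, and 0 ER genes rose, 0 among the regulators. In the other lists 0 to 1 folding, 1 ERAD and 0 to 1 export genes rose. Medians ranged from 0.026 to 0.060 for ER genes, from 0.022 to 0.052 for translocation, from 0.029 to 0.070 for folding, from -0.059 to -0.0099 for ERAD and from -0.12 to 0.045 for regulators. In the other lists they ranged from -0.032 to 0.0079 for translocation, from -0.11 to -0.033 for folding, from -0.022 to 0.019 for ERAD and from -0.0076 to 0.059 for export. Differences of 6 genes also turned sign, with ranges from -0.025 to 0.012 for SEC61B, from -0.0092 to 0.065 for SEC62, from -0.0069 to 0.11 for SPCS1, from -0.22 to 0.13 for SPCS2, from -0.034 to 0.073 for MANF and from -0.12 to 0.045 for WFS1. Across all alternatives the ER genes gave 318 fits with the same direction and side of the threshold, 7 that lost the call (all of CREB3L2), 5 that gained one and 20 that turned sign. The cause of these shifts was not tested. The dimmest genes of the set, SPCS2, ERO1B, SELENOS and CRELD2, had larger standard errors (0.20, 0.15, 0.122 and 0.119), as did the brighter WFS1 (0.120).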
